A study of Mus musculus with 15 samples.

Results

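The probes described here are long-transcript probes that read out as present in the brains of one group of mice and as not measurable in another. Their level was the log2 of the processed spot intensity minus the 75th percentile of that array, so a level of 0 is the brightness of a fairly strong probe on the array. A probe was chosen where its highest and lowest group means lay at least 3 log2 units apart, and where the scanner software flagged it as well above background on all arrays of the highest group and on no array of the lowest. This choice returned 298 of the 51842 probes whose names begin with ASMM9PARTA (0.575%), out of 59709 probes on the array other than controls. The members were thus chosen by these same values, so their highest and lowest levels are given as a description and carry no test.

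The arrays measured RNA from whole mouse brain, labelled with Cy3 in a one-colour design on a C57BL background. The 5 groups were wild-type (WT) mice, for which the sample labels give no age, and APP/PS1 mice of 1, 3, 6 and 9 months. APP/PS1 mice are transgenic mice that develop amyloid plaques in the brain and are used as a model of Alzheimer's disease; the labels do not name the promoter or the alleles of the line. The design text speaks of an age-matched WT control for each age and of males, whereas the labels give 1 male (replicate 1) and 2 females in each group. Genotype and age could therefore not be told apart in any comparison with WT, and nor could sex and the other differences between replicates. Nothing in the labels ties a replicate to pooled or repeated RNA, so the spread between samples may be in part technical.

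Long noncoding RNAs are transcripts without a long reading frame that are copied from DNA by RNA polymerase II like messenger RNAs, and many are spliced and polyadenylated. They are on the whole less abundant than messenger RNAs and more restricted to single tissues, cell types or stages, and the brain expresses a large number of them. A probe near background can switch its flag with a small change of brightness. The ASMM9PARTA codes come without a gene name, strand or genomic position in the tables used here, so the members are named by code, and neither sequences nor genomic neighbours are given.

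Scanner data were used for 14 arrays, 2 of WT and 3 of each APP/PS1 age. At 1, 3 and 6 months the residuals of the negative control spots of replicates 2 and 3 correlated at 0.80 to 0.83, against at most 0.24 in any other pair. Each such pair was therefore merged into a single value. Their median difference was 0.20 to 0.24 of the error given by the scanner software. Other pairs within a group, those at 6 months apart, also differed by less than that error. Counted in this way there were 11 samples, with 3 at 9 months and 2 in every other group. All 9-month arrays were scanned at one detector voltage that no other array had, so the scan setting and the 9-month group cannot be told apart. The 75th percentile of intensity ranged from 366.5 to 543 units and the share of spots well above background from 66.9% to 81.5%. None of the 18 brain and blood cell markers looked for was named on the arrays, so the tissue label could not be checked against them. In such bulk RNA, fewer cells of a type and less RNA per cell cannot be told apart.

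The word "on" below means that a probe was well above background on all arrays of a group, "off" that it was so on none, and "mixed" that the arrays of the group differed. Off states only that the probe was not well above background. The lowest level that counted as well above background differed between arrays, from -5.33 on a 6-month array to -4.31 on a 3-month array. On 9 of the 14 arrays between 4220 and 9854 spots shared the smallest value of the array, and levels at that value have no order. For the 206 members that were off in 2 or more groups, which of these groups was the lowest is therefore not a measured order. Fold changes against an off group are lower bounds, computed once as follows: the mean of the on group against the mean of the off group, where each off array took the higher of its own level and the lowest level well above background on that array.

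More members were brightest at 9 months than in any other group. Of the 298 members, 159 had their highest mean at 9 months, 81 at 6 months, 26 at 3 months, 12 at 1 month and 20 in WT. Without the flags, 356 of the 732 probes with a range of at least 3 were highest at 9 months. The share of all ASMM9PARTA probes highest at 9 months was not computed, so these counts describe the members and are not read as particular to them. The lowest mean was at 1 month for 101 members, at 6 months for 68, in WT for 66, at 3 months for 40 and at 9 months for 23. The most frequent pairings, at 44 members each, were 9 months over 1 month, 9 months over 6 months and 6 months over 1 month, followed by 39 members with 9 months over WT and 32 with 9 months over 3 months. Pairings with WT on top were few, at 8 over 6 months, 8 over 9 months, 3 over 1 month and 1 over 3 months.

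**Figure D1:**
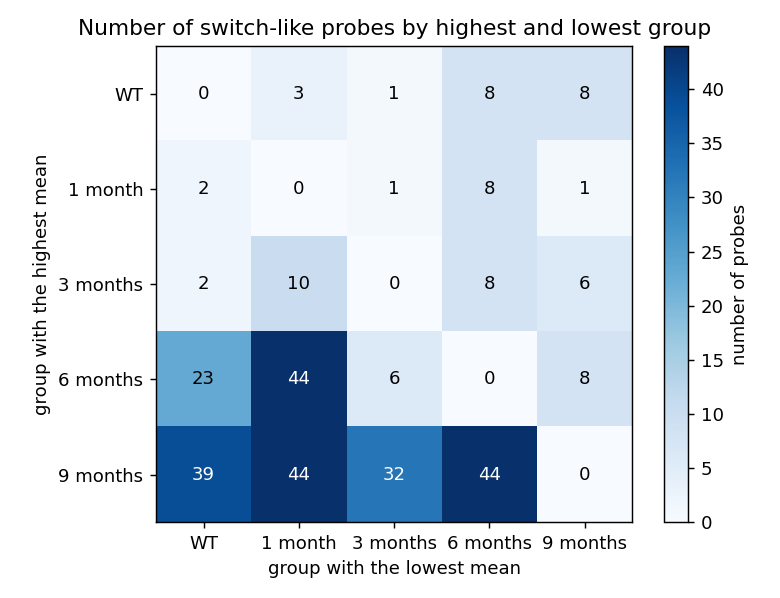
Number of members by the group with the highest mean (vertical axis) and the group with the lowest mean (horizontal axis). The cells with 44 members lie in the rows of 6 and 9 months, and the upper 3 rows hold at most 10 members a cell.

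Counted by the flags, 202 members were on at 9 months, against 72.1% of all ASMM9PARTA probes, and 151 were on at 6 months, against 77.6%. At 3 months 113 members were on, against 68.6% of all probes; at 1 month 82 were on, against 73.2%; and in WT 75 were on, against 68.6%. The choice itself makes every member on in one group and off in another, so these counts describe the members and are not read against the shares of all probes. WT held the largest number of off members, 199, and also the largest share of all probes off, 26.1%. It was followed by 175 members at 1 month (19.7% of all probes off), 152 at 3 months (22%), 110 at 6 months (14%) and 65 at 9 months (17%).

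The levels of the members were modest. The median of the highest group mean was -2.39 on the log2 scale relative to the 75th percentile, and the highest means ran from -4.41 to 3.81. No more than 28 members had a highest mean above the 75th percentile itself, and 186 stayed below -2. The lowest group means had a median of -6.62 and ran from -7.50 to -4.48. The lower bound on the fold of highest over lowest had a median of 4.99 and ran from 1.65 to 322; it was at least 10 for 74 members and under 2 for 25. No member was saturated on any array, and 3 had a spot flagged as non-uniform or as an outlier. With normexp background correction, which adds an offset of 50 intensity units and so lifts dim values, 23 probes met the rule, all of them among the 298, and 14 of these were highest at 9 months. Normexp was run on the median spot and background signals, not on the processed signal. Some members, such as ASMM9PARTA039476 with a normexp range of 6.44, kept a range of at least 3 and were left out by the flags. The number of members was 507 without the second 3-month sample and 311 to 424 without any other one sample.

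**Figure D2:**
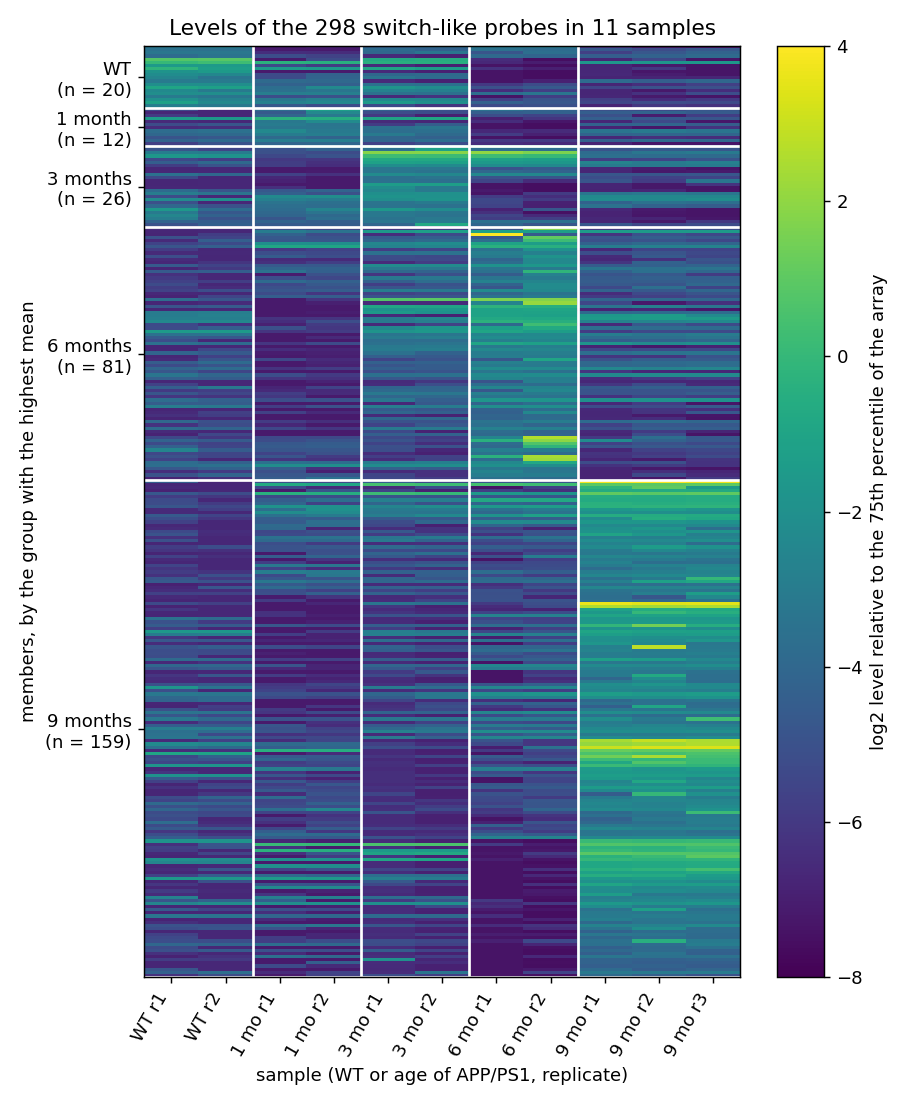
Levels of the 298 members (rows) in the 11 samples (columns), as log2 relative to the 75th percentile of the array (colour); rows are sorted by the group with the highest mean and white lines part the groups. The lower block of 159 members is brightest in the 3 columns of 9 months, and the block of 81 above it in the columns of 6 months, where some rows are much brighter in the second sample than in the first.

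The label "switch-like" holds for the extremes and less for the groups between them. The members showed 80 different patterns of on, off and mixed over the 5 groups, and 172 had no mixed group. Of the 894 group means between the highest and the lowest, 359 lay in the lowest 25% of the member's own range, 169 in the highest 25% and 366 in between. In 209 members a single gap between neighbouring group means took up more than 50% of the range, and in 54 more than 80%. One step thus held most of the range in most members, while a near-complete switch with no graded level was found in few. The same counts were not made over all probes, and levels of off groups have no measured order. They therefore describe the members only.

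At the clearest end, 62 members were on in exactly 1 group and off in the other 4: 43 at 9 months, 11 at 6 months, 3 in WT, 3 at 1 month and 2 at 3 months. The 43 members on at 9 months alone had a range of group means with a median of 3.84 (3.01 to 7.23) and a 9-month level with a median of -2.76, and the bound on their fold had a median of 4.22. A further 17 members were on at 9 months, mixed at 6 months and off elsewhere, and 8 were on at 9 months, mixed at 1 month and off elsewhere. The 48 members off in exactly 1 group and on in the other 4 divided into 17 off at 1 month, 16 off in WT, 10 off at 6 months and 5 off at 9 months, with none off at 3 months alone. Their bounds were higher: the bound had a median of 8.83 for those off at 1 month and 9.46 for those off in WT. The count of 62 was larger where a group had 1 sample fewer: it was 97 and 107 without the first or the second WT sample, 124 without the first 1-month sample, 108 and 158 without the first or the second 3-month sample, and 134 and 95 without the first or the second 6-month sample.

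The brightest on-state belonged to a few probes at 9 months. ASMM9PARTA031158, the member with the widest range, had levels of 3.65, 3.45 and 3.53 at 9 months, -5.31 and -5.72 in WT, -7.11 and -6.70 at 1 month, -3.28 and -3.52 at 3 months, and -5.94 and -5.12 at 6 months. The 3 samples of 9 months lay far above all others, and the 3-month samples lay between these and the rest. Its 9-month mean was at least 322-fold above 1 month. ASMM9PARTA039476 was brighter still at 9 months, with 3.84, 3.87 and 3.73, and had -4.41 and -6.67 in WT, -5.07 and -5.20 at 1 month, -4.43 and -5.39 at 3 months and -4.78 and -4.77 at 6 months. It was flagged on at 6 months although its 6-month levels lay among those of the off groups, and its 9-month mean was at least 292-fold above WT.

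ASMM9PARTA050454 had levels of 2.57, 2.36 and 2.51 at 9 months and of -6.81 and -6.67 in WT, -7.11 and -7.11 at 1 month, -6.08 and -6.90 at 3 months and -6.46 and -5.32 at 6 months. ASMM9PARTA033087 had 2.44, 2.93 and 2.51 at 9 months, -6.56 and -5.67 in WT, -6.51 and -5.52 at 1 month, -6.64 and -6.87 at 3 months and -4.83 and -6.11 at 6 months. Both probes were bright in all samples of 9 months and at or near the background in the others, apart from a mixed flag at 6 months. The bounds were 154-fold over 1 month for the first and 136-fold over 3 months for the second. Of the members with the pattern of ASMM9PARTA050454, ASMM9PARTA033087 had the levels most like it over the 11 samples, with a Pearson correlation of 0.98.

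ASMM9PARTA047612 was on in WT and at 9 months alone. It had -1.85 and -1.79 in WT, -6.72 and -6.99 at 1 month, -6.52 and -6.93 at 3 months, -7.38 and -7.56 at 6 months, and 0.13, -0.03 and 0.09 at 9 months. WT and 9 months stood well apart from the ages between, and the bound of 9 months over 6 months was 37.0-fold. The 4 other members with this pattern correlated with it at 0.95 to 1.00 over the 11 samples. ASMM9PARTA029223 was on in WT, at 1 month and at 9 months, with -2.26 and -2.55 in WT, -3.87 and -3.91 at 1 month, -5.73 and -6.42 at 3 months, -5.34 and -6.10 at 6 months and 2.12, 2.29 and 2.56 at 9 months. Its level was lowest in the middle of the age series, and 9 months was at least 111-fold above 3 months.

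ASMM9PARTA024808 was the widest of the 16 members that were off in WT and on at all 4 ages. Its levels were -6.71 and -6.67 in WT, -0.68 and -0.88 at 1 month, 0.46 and 0.29 at 3 months, 0.44 and 0.27 at 6 months, and 0.98, 0.94 and 1.00 at 9 months. All APP/PS1 samples stood far above both WT samples, and the 9-month mean was at least 42.9-fold above WT. ASMM9PARTA051121, the second widest of the 16, had a bound of 43.8-fold. Over all 16 the bound ran from 2.42 to 43.8, and the highest mean was at 9 months for 9 of them, at 6 months for 6 and at 3 months for 1. Just 3 members had the opposite pattern, on in WT and off at all 4 ages.

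Those 3 were led by ASMM9PARTA023494, with -1.47 and -1.47 in WT, -5.33 and -5.96 at 1 month, -6.52 and -6.93 at 3 months, -7.38 and -7.56 at 6 months, and -6.74, -7.18 and -7.31 at 9 months. The bound of WT over 6 months was 12.8-fold. ASMM9PARTA030909 was on in WT and at 3 months and off elsewhere: it had 0.79 and 0.88 in WT, -7.11 and -5.23 at 1 month, -0.67 and -0.52 at 3 months, -6.47 and -7.56 at 6 months, and -6.77, -5.42 and -7.31 at 9 months. Among the ages it peaked at 3 months alone, and WT was at least 63.0-fold above 6 months. ASMM9PARTA039168 was off at 6 months alone, with 0.04 and 0.30 in WT, -0.32 and -0.43 at 1 month, -0.41 and -0.41 at 3 months, -6.61 and -7.03 at 6 months, and -1.70, -1.75 and -1.66 at 9 months. Both 6-month samples were near the smallest values of their arrays, and WT was at least 39.8-fold above them.

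Members with their highest mean at 1 month were the fewest. ASMM9PARTA045941 had -1.38 and -1.51 in WT, -0.27 and -0.53 at 1 month, -0.98 and -0.84 at 3 months, -6.96 and -6.13 at 6 months, and -4.37, -4.69 and -4.79 at 9 months. It was off at 6 months alone, was dim but on at 9 months, and its bound of 1 month over 6 months was 26.9-fold. ASMM9PARTA011226 was on at 1 month alone, with -3.21 and -2.23 there, -6.57 and -6.67 in WT, -6.56 and -6.69 at 3 months, -6.45 and -7.28 at 6 months, and -6.69, -5.37 and -7.28 at 9 months; the bound was 5.37-fold. ASMM9PARTA020539 spread over the range, with -5.23 and -4.79 in WT, -3.0 and -3.32 at 1 month, -5.85 and -4.47 at 3 months, -7.38 and -7.56 at 6 months, and -4.24, -4.07 and -4.44 at 9 months. Its 9-month samples were on, in between the 1-month and the 6-month samples, and the bound was 3.95-fold.

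At 3 and 6 months 3 bright members stood above WT and 9 months together. ASMM9PARTA023701 had -2.95 and -3.07 in WT, -5.02 and -5.26 at 1 month, 1.80 and 1.83 at 3 months, 2.01 and 1.64 at 6 months, and -3.81, -3.29 and -3.03 at 9 months. ASMM9PARTA017459 had -1.65 and -1.87 in WT, -5.39 and -4.98 at 1 month, 0.22 and 0.19 at 3 months, 0.24 and 0.06 at 6 months, and -3.62, -3.78 and -3.86 at 9 months. ASMM9PARTA027745 had -3.72 and -4.78 in WT, -7.11 and -6.19 at 1 month, 0.80 and 0.98 at 3 months, 1.65 and 1.76 at 6 months, and -4.10, -3.89 and -4.0 at 9 months. In all 3 the samples of 3 and 6 months formed a high plateau that no sample of another group reached, 1 month was off, and WT and 9 months lay between. The bounds of the highest group over 1 month were 97.1, 31.9 and 89.8-fold in that order. ASMM9PARTA017459 was the member most like ASMM9PARTA023701 among the 17 that were off at 1 month alone, with a correlation of 0.94 over the 11 samples, while the median over that pattern was 0.42. ASMM9PARTA051639 was on at 3 months alone, with -1.38 and -1.29 there, -6.72 and -6.67 in WT, -7.11 and -7.11 at 1 month, -7.38 and -7.56 at 6 months and -6.75, -7.21 and -6.18 at 9 months; the bound was 14.03-fold.

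**Figure D3:**
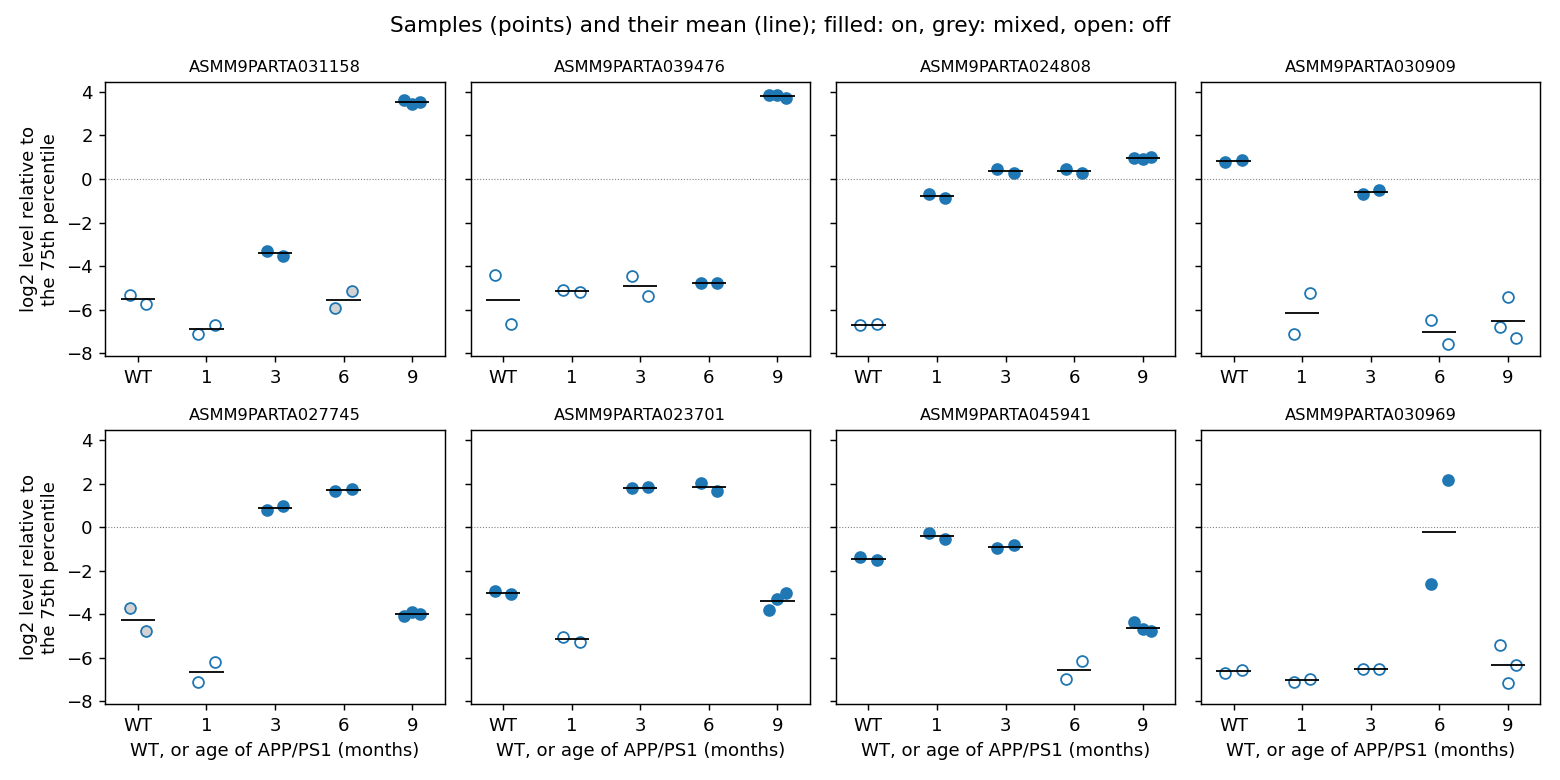
Levels of 8 members as log2 relative to the 75th percentile of the array (vertical axis) in WT and in APP/PS1 mice by age in months (horizontal axis); points are samples, lines their means, filled points belong to groups that were on, grey to mixed and open to off groups. The panel of ASMM9PARTA030969 shows the 6-month samples at -2.62 and 2.17, whereas the 9-month samples of ASMM9PARTA031158 and ASMM9PARTA039476 lie close together.

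Some members highest at 6 months differed widely between the samples of that group. The median spread there was 0.28 log2 units, beside 0.28 in WT, 0.33 at 1 month, 0.16 at 3 months and 0.31 at 9 months. Over all non-control spots, replicate 1 differed from the other 6-month arrays by a median of 1.34 and 1.38 times the scanner error. In other pairs within a group that were not merged this was 0.48 to 0.59, so the 6-month samples differed beyond the members. ASMM9PARTA030969 was on at 6 months alone, with -2.62 and 2.17 there, -6.71 and -6.54 in WT, -7.11 and -6.96 at 1 month, -6.53 and -6.52 at 3 months, and -5.44, -7.17 and -6.35 at 9 months. ASMM9PARTA025231 had -0.33 and 2.42 at 6 months, -5.02 and -5.50 in WT, -4.88 and -5.93 at 1 month, -5.80 and -5.62 at 3 months, and -6.31, -5.74 and -5.27 at 9 months. ASMM9PARTA027681 had -3.77 and 2.23 at 6 months, -5.64 and -6.67 in WT, -6.20 and -6.28 at 1 month, -6.48 and -5.67 at 3 months, and -6.70, -7.16 and -6.22 at 9 months. In each the second sample, which averages a near-identical pair of arrays labelled female, was the higher and replicate 1, labelled male, the lower. Their bounds over the lowest group were 23.6, 58.0 and 16.5-fold. Without the second sample their ranges fell from 7.58, 7.27 and 6.92 to 4.395, 5.44 and 2.92 in that order. The second sample thus raised all these means, and ASMM9PARTA027681 alone fell below a range of 3 without it.

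The spread within the highest group comes from values that the choice used, and at 1, 3 and 6 months the second sample, being 2 arrays, weighed more in the group mean; it is given as a description. At 6 months 17 of 81 members had samples 2 or more log2 units apart, against 0.596% of all probes on at 6 months; replicate 1 was the lower in 16 of them and the higher in 1. The exception, ASMM9PARTA017882, had 4.02 in replicate 1 and -4.62 in the second sample. At 9 months 15 of 159 members were so far apart, against 0.34%, most often because a single female sample was higher, replicate 2 in 7 members and replicate 3 in 5. Values were 2 of 26 at 3 months against 0.138%, 2 of 12 at 1 month against 0.263%, and 0 of 20 in WT against 0.0871%. No more is read from these shares. In 262 of the 298 members the samples of the highest group lay within 2 of each other. Whether sex or another difference between these animals goes with the spread was not tested.

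The samples of the highest and the lowest group did not overlap in any of the 298 members. The choice favours this without fixing it, and the same was not counted over all probes, so nothing is read from it. The gap between them had a median of 3.34 log2 units, was at least 2 in 271 members and below 1 in 7, and the smallest was 0.29.

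To see whether a switch recurred in a sample that had no part in choosing it, each sample was left out in turn, the same rule was applied to the others, and the left-out sample was read for the probes chosen. In WT, 19 of 75 probes chosen as highest there were on in replicate 1 when it was left out, against 71.8% of all probes, and 25 of 108 in replicate 2, against 70.7%. At 1 month the counts were 19 of 124 (76% of all probes) and 15 of 62 (75.9%), and at 3 months 27 of 107 (70.9%) and 32 of 197 (72.9%). At these groups most probes chosen on 1 sample were not on in the other. At 6 months 89 of 177 (79.1%) were on in replicate 1 and 77 of 110 (82.4%) in the second sample.

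At 9 months, where 2 samples remained to choose by, 168 of 181 were on in replicate 1 (73% of all probes), 160 of 166 in replicate 2 (79.3%) and 158 of 166 in replicate 3 (80.9%). Over all groups, these high counts of 9 months included, the left-out sample was on in 789 of 1473 such choices, 53.6%. For probes chosen as lowest in a group, the left-out sample was off in 723 of 924, 78.2%. Dim probes are more readily off than on in a further sample, so the 2 pooled shares are not read against each other. The shares of all probes cover bright probes too and are no matched reference. For these the left-out samples ran from 43 of 80 off in the second 3-month sample, against 23.2% of all probes, and 80 of 149 in the second 6-month sample, against 14.8%, to 28 of 28 in replicate 1 at 9 months, against 27%. The number of samples left to choose by, 1 in most groups and 2 at 9 months, moves with the share that recurred, as does the scan setting shared by the 9-month arrays, and their part was not tested.

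**Figure D4:**
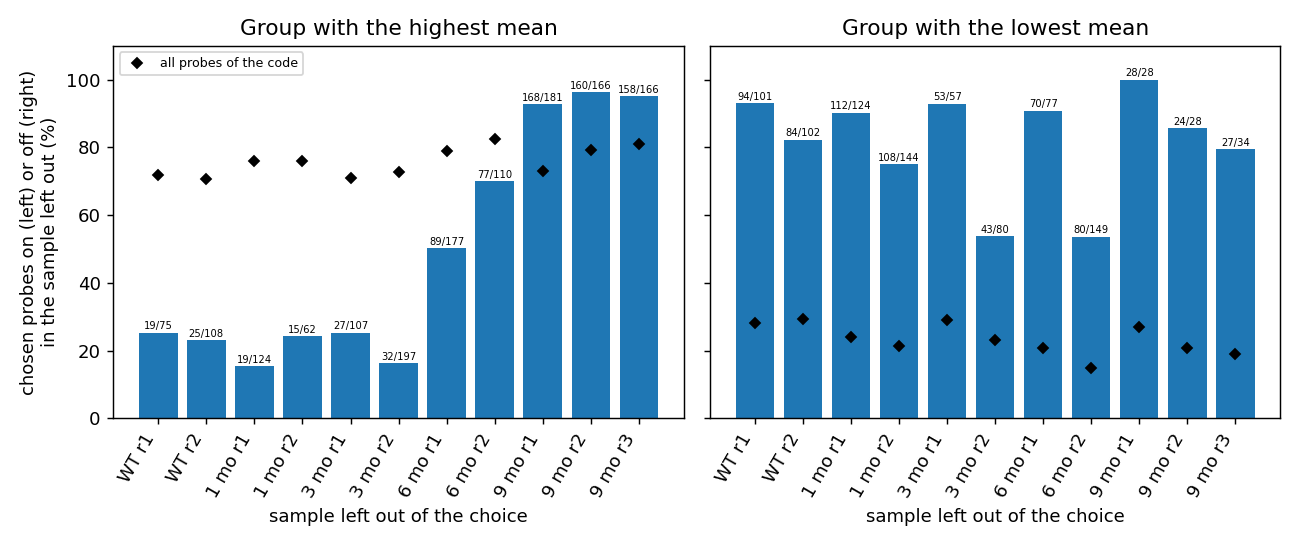
Share of probes, chosen without the sample named on the horizontal axis, that were on in that sample when its group was chosen as highest (left) or off when its group was chosen as lowest (right), in percent; diamonds give the share of all ASMM9PARTA probes on or off in that sample, and the numbers above bars the counts. Bars of 9 months on the left lie above the diamonds, those of the other groups below, and all bars on the right lie above the diamonds.

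The groups that were neither highest nor lowest for a member were compared as well. Their means took part in ranking the groups, so these comparisons are not independent of the choice. The model of limma was fitted to 50198 probes in the 11 samples, with Benjamini-Hochberg adjustment over all of them in each comparison. A member entered a comparison where both of its groups lay between its extremes, so the choice bounded the values from both sides and the groups compared differ from member to member. Members on in a single group passed the filter on dim probes through that group alone. In all, 258 of 894 such comparisons, 28.9%, passed an adjusted p of 0.05, and 133 members had at least 1. Of these calls 18, from 259 comparisons, were between groups that were both off and whose levels have no order; the other 635 comparisons gave 240 calls, 37.8%. Where both groups were on, 78 of 198 passed. Where one was on and the other off, 110 of 148 passed, with a median bound of 2.56-fold, and 4 of these had no fold above 1 (lowest 0.79). The same shares over all probes with these flags were not computed, and the flags favour calls of on against off. Nothing is thus read from these counts about the members. With the labelled sex as a block 252 comparisons passed, 245 of them shared.

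For 1 month against WT, 14 of 104 members were higher and 8 lower, against 3.83% and 3.68% of all probes (7.5% in either direction). For 3 months against WT, 22 of 149 were higher and 11 lower, against 5.86% and 3.34% (9.2%). For 6 months against WT, 21 of 94 were higher and 13 lower, against 11.7% and 7.83% (19.6%). For 9 months against WT, 15 of 77 were higher and 13 lower, against 16.5% and 12.6% (29.1%). The excess of higher over lower calls in members was thus largest for 3 and 6 months against WT in number, and all probes leaned the same way. The 66 members lowest and the 20 highest in WT do not enter these comparisons, so nothing is read from the direction.

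Between ages, 10 of 130 members were higher and 14 lower at 3 months against 1 month, against 7.82% and 5.3% of all probes (13.1% in either direction). At 6 months against 1 month 9 of 88 were higher and 14 lower, against 12.2% and 8.62% (20.8%), and at 9 months against 1 month 6 of 48 and 10, against 17% and 13.9% (30.9%). Lower calls outnumbered higher ones among members in these 3 comparisons, the other way round from all probes. These comparisons leave out the 101 members lowest and the 12 highest at 1 month. Which members enter thus bears on the direction, and nothing is read from it. At 6 months against 3 months 16 of 97 were higher and 10 lower, against 6.06% and 6.02% (12.1%). At 9 months against 3 months 9 of 88 were higher and 33 lower, against 13.8% and 13.2% (27%), and at 9 months against 6 months 0 of 19 and 10, against 10.6% and 10.5% (21.1%). A member can enter these last comparisons only where 9 months is not its highest group, which leaves out the 159 members brightest there. Shares of members called lay from 18.5% to 52.6%, beside 7.5% to 30.9% of all probes, and the 2 shares were closest for 9 months against 1 month, at 33.3%. Since extremes chose the members, nothing is read from the difference. The comparisons share samples and are not independent of each other.

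**Figure D5:**
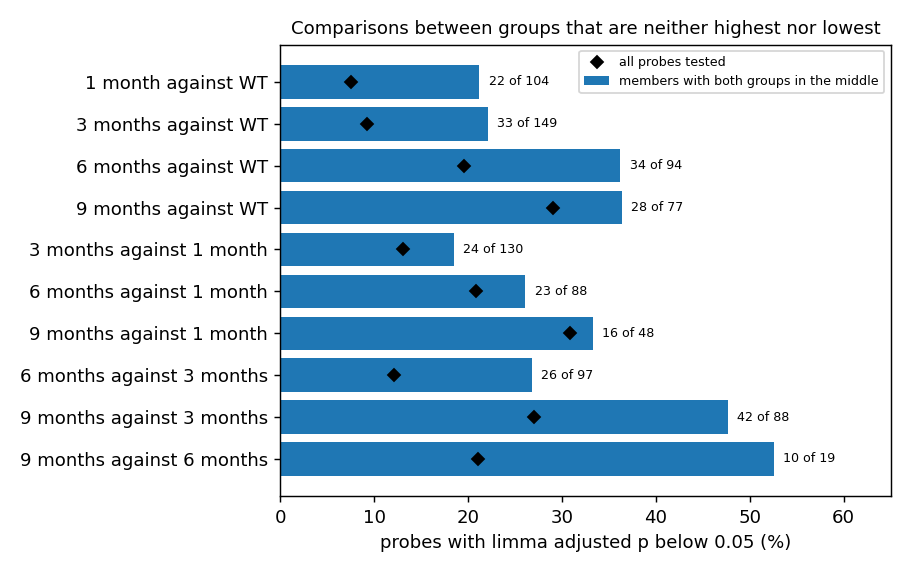
Share of members with a limma adjusted p below 0.05 in each comparison (bars, percent), restricted to members for which both groups lay between the highest and the lowest; diamonds give the share among all 50198 probes tested and the numbers the members called of those tested. All bars reach beyond their diamonds, by the least for 9 months against 1 month.

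Among the members named above, 24 such comparisons passed, of which the 2 in ASMM9PARTA023494 were between off groups. In ASMM9PARTA023701 6 months was 4.83 log2 units above WT (SE 0.24, limma adjusted p = 3.20e-05) and 9 months was 5.20 below 6 months, a difference of -5.20 (SE 0.22, adjusted p = 6.44e-06), while 9 months and WT differed by -0.37 (SE 0.22, adjusted p = 0.261). In ASMM9PARTA017459 6 months was above and 9 months below WT: 6 months was higher by 1.91 (SE 0.16, limma adjusted p = 0.000258) and 9 months against WT at -2.0 (SE 0.14, adjusted p = 0.000119). In ASMM9PARTA027745 the 3-month mean lay 5.14 above WT (SE 0.38, limma adjusted p = 0.000319) and 9 months against 3 months differed by -4.89 (SE 0.34, adjusted p = 0.000102). In ASMM9PARTA023701 and ASMM9PARTA017459 the 6-month level, and in ASMM9PARTA027745 the 3-month level, thus lay above WT by more than the spread between samples. The other age of each plateau was the highest group by the mean of arrays, which chose the probe, and was not tested. In ASMM9PARTA023701 the samples of 3 and 6 months overlapped, and with samples weighing equally 6 months was slightly the higher. Its 6-month tests are therefore not independent of the choice, and their p-values are a description.

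In ASMM9PARTA024808, the probe off in WT, the levels among the APP/PS1 ages differed as well: 3 months lay 1.15 above 1 month (SE 0.10, limma adjusted p = 0.000820) and 6 months 1.13 above 1 month (SE 0.10, adjusted p = 0.000304), whereas 6 months against 3 months gave -0.02 (SE 0.10, adjusted p = 0.944). ASMM9PARTA039168, off at 6 months alone, was lower at 9 months than at 1 month by a difference of -1.33 (SE 0.13, limma adjusted p = 0.000373) and than at 3 months by -1.29 (SE 0.13, adjusted p = 0.000606); 3 months against 1 month gave -0.03 (adjusted p = 0.918). ASMM9PARTA045941 had a 9-month difference of -3.17 from WT (SE 0.24, limma adjusted p = 0.000144) and of -3.70 from 3 months (SE 0.24, adjusted p = 7.24e-05). Both probes that were off at 6 months were thus also dimmer at 9 months than at 3 months, though on.

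Against off groups the limma tests compared the levels as measured. The folds beside them are lower bounds, which were not themselves tested. Where a member was off in several groups, which of them was lowest is not a measured order. An on-against-off test then repeats in part the gap that chose the member, and its p-value is a description. ASMM9PARTA047612 was at least 7.81-fold higher in WT than at 1 month and at least 6.24-fold higher than at 3 months. The levels differed with a limma adjusted p of 8.10e-06 in each comparison. In ASMM9PARTA030909 3 months was at least 18.2-fold above 1 month (limma adjusted p = 0.00438) and at least 18.6-fold above 9 months (adjusted p = 0.00104). In ASMM9PARTA029223 WT was at least 6.68-fold above 6 months (limma adjusted p = 0.000439) and 1 month at least 2.38-fold (adjusted p = 0.00494); the latter did not pass with normexp background correction, where the difference was -0.37 and the adjusted p 0.282. Its difference of 1 month from WT, -1.49 (SE 0.31, limma adjusted p = 0.0297), did not pass in 6 of 17 alternative settings, in 5 of which a single sample was left out, with adjusted p up to 0.129. In ASMM9PARTA031158 3 months was at least 2.07-fold above WT (limma adjusted p = 0.00414), and with normexp the difference was 0.08 (adjusted p = 0.779). The middle groups of the probes on in a single group, such as ASMM9PARTA011226 and ASMM9PARTA051639, were all off and gave no fold.

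Some members lay next to each other in the numbering of the codes. Of 9 pairs with consecutive codes, 6 had levels that correlated above 0.8 over the 11 samples: ASMM9PARTA000019 and ASMM9PARTA000020 at 0.96, ASMM9PARTA010302 and ASMM9PARTA010303 at 0.94, ASMM9PARTA046928 and ASMM9PARTA046929 at 0.89, ASMM9PARTA025231 and ASMM9PARTA025232 at 0.89, ASMM9PARTA006005 and ASMM9PARTA006006 at 0.88, and ASMM9PARTA043857 and ASMM9PARTA043858 at 0.80. The correlations of the other 3 pairs were 0.21, -0.07 and -0.10. ASMM9PARTA025232, the neighbour of the 6-month probe described above, was on at 6 and 9 months and had a bound of 38.2-fold. What consecutive codes share on the genome is not given in the tables used here. On the array itself 36 members lay within 2 rows and 2 columns of another member.

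Within a pattern the levels followed one another to differing degrees, which the shared flags favour. Over the 11 samples the other members on at 9 months alone correlated with ASMM9PARTA039789, the widest of that pattern, at a median of 0.94 (0.78 to 0.99), with ASMM9PARTA010400 the most alike. The members off in WT alone correlated with ASMM9PARTA024808 at a median of 0.87 (0.31 to 0.98), with ASMM9PARTA018523 the most alike. Those off at 9 months alone were the least alike, with a median of 0.41 to ASMM9PARTA031964.

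The threshold had no gap around it. ASMM9PARTA023174 and ASMM9PARTA044769 entered with ranges of 3.0038 and 3.0041, and ASMM9PARTA008655 and ASMM9PARTA009282 stayed out at 2.9995 and 2.9987. In all 732 probes had a range of at least 3, and 434 of them were left out by the flags. Among the other kinds of probe on the array the same rule returned 29 of 7867 (0.369%), of which 15 of 3457 were probes to exons of long intergenic RNAs and 0 of 118 were probes to RefSeq messenger RNAs. No test was made of these shares.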

How the data were processed

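Cy3-labelled RNA of mouse brains was read on Agilent arrays with one colour. The authors deposited one scanner output per array; the submitters' processing notes name Agilent Feature Extraction 10.7.1.1. The deposited intensity used is the processed signal, which is background-subtracted per the file headers, together with flags of 0 or 1 for each spot as other values. A deposited value table was also tested: in its 14 columns with scanner data all 62513 rows equalled the local background intensity of the spot within 0.001, so these columns held no expression values (medians 27.9 to 32.6, linear scale). The column of the third WT sample could not be compared in this way, and the table was not used. For the third WT sample no scanner data were used here. There were 0 further columns of per-sample values left out.

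Processed signals of non-control spots were scaled to the 75th percentile of each array on the log2 scale, and the members were found by the stated rule on the 14 arrays, each array weighing equally within its group. Near-identical arrays (correlation of negative-control residuals above 0.5) were averaged for sample values and tests. Middle-group comparisons used limma 3.58.1 in R 4.3.3 (lmFit, eBayes, 1 fit over 11 samples, no covariate) on probes well above background on at least 2 arrays, with Benjamini-Hochberg adjustment. In simulated data for 9 months against 1 month (50198 probes) it called 45 of 100 probes changed by 1 log2 unit, 82 of 100 changed by 3, and 9 of 49998 unchanged. The simulation drew independent normal noise, changed probes picked at random, and set 3 samples against 2. Its counts do not carry over to members, chosen for extremes, or to levels tied at the smallest value. The limma tests took the place of planned tests of neighbouring probes, which need coordinates, and were chosen after the data had been seen. Members and lists were chosen with earlier results of these data known. Named members are the 3 widest for each highest group, the 2 widest for each lowest group and the 4 probes around the threshold; others named for an extreme were chosen after their values were seen. The alternatives were other scalings, normexp, other filters and thresholds, averaging, labelled sex as a block, and leaving out each sample; fold bounds use the lowest signal well above background. Array number limits the precision.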

Additional observations from a re-analysis of the deposited data

How the results depend on the processing

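The number of members was 298. It was 287 with median scaling and 291 with quantile normalization, of which 276 were shared. It was 23 with normexp, 821 and 138 with a range of at least 2 and of at least 4, 169 without the 9-month arrays (168 shared) and 732 without the flags. Leaving out one sample gave 311 to 507. The 62 members on in 1 group only became 6 with normexp, 126 and 28 with a range of at least 2 and of at least 4, 37 without the 9-month arrays, and 65 to 158 when one sample was left out. The 258 middle-group comparisons that passed in limma became 169 with normexp, 330 with all 14 arrays as separate samples, 252 with labelled sex as a block (245 shared), and 233 to 256 when one sample was left out; these alternatives were chosen after seeing the data.

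For the 20 named members no range changed sign, and 7 of 311 values fell below 3, of which 6 with normexp, where the 20 ranges ran from 0.94 to 6.35. Of their 24 called comparisons 6 lost the call in some alternative, and ASMM9PARTA023494 at 3 months against 1 month, off in both, turned from -1.08 to 0.0517 with normexp (limma adjusted p = 0.888, 0.888 being the highest over its alternatives). The offset of normexp lifts dim values by construction. The planned comparisons of neighbouring probes were not run, since the codes are not paired with coordinates in the tables used here. No paired analysis was possible because all titles give replicate 1, and numbers in accession order pair no samples; the block on labelled sex lost none of the 24 calls. Signal over background limits these results: the lowest group of a member is not well above background, and dim on-states lie near it.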
